A study of Ovis aries with 8 samples.

Results

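Sheep embryonic stem cells in a naive-like state, grown without feeder cells, were compared with primed sheep embryonic stem cells, which were grown without feeder cells too. The comparison took every feeder-free library of the series by its labels, 6 of 8 libraries: 2 of feeder-free naive-like cells, 2 of primed line A and 2 of primed line B. The 2 libraries of naive-like cells on MEFs, embryonic fibroblasts used as feeders, were not used.

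The naive-like cells were labelled as converted out of the primed state and were sampled at passage 12. Their medium combined DMEM/F-12 and Neurobasal with 20 ng/mL human LIF, a cytokine that acts through STAT3, and 20 ng/mL Activin A, a ligand of the Nodal receptors. It also held 1 µM PD0325901, an inhibitor of the kinase MEK, 2 µM XAV-939, an inhibitor of tankyrase and so of WNT signalling, 2 µM Go6983, an inhibitor of protein kinase C, 1.2 µM CGP77675, an inhibitor of SRC kinases, and 50 µg/mL ascorbic acid. Primed cells of lines A and B were wild type by their label and at passage 10, in NBFR medium. It had the same basal mixture with N2 and B27 supplements, 1% BSA, 20 ng/mL Activin A, 20 ng/mL bFGF and endo-IWR-1, another tankyrase inhibitor, at 3 µM. All cells traced to the inner cell mass of the blastocyst and were kept at 37 °C and 5% CO2 in ambient oxygen. Activin A and a tankyrase inhibitor were thus in both media, while LIF and inhibitors of MEK, protein kinase C and SRC were in one and bFGF in the other. The labels give the naive-like cells a cell line name of their own, N sESC, beside sESC A and sESC B. State, medium, passage and cell line changed together, so their effects cannot be told apart. Which line gave rise to the naive-like cells is not given in the sources used here.

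As background, pluripotent cells of the embryo pass through a naive state, before implantation in mouse and human, and a primed state close to the epithelium of the later epiblast. Naive cells of the mouse depend on LIF and on blocked MEK and ERK signalling, whereas primed cells depend on FGF and Activin or Nodal. Genes such as KLF4 and TFCP2L1 mark the first state in mouse and human, and FGF5, DUSP6 and ZIC2 the second.

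Levels are given in TPM, a share of all transcripts of a library corrected for transcript length. Changes are differences of log2(TPM + 1), naive-like minus primed, with the standard error, so that a change of 1 is 2-fold and changes of low genes are understated. Values of the primed libraries are listed as line A replicate 1 and 2, then line B replicate 1 and 2. A gene was called at a Benjamini-Hochberg adjusted p under 0.05 in limma, fitted on the 14481 genes that reached 1 TPM in 2 or more of the 6 libraries. A gene silent in either state could pass this filter through the other state alone, which bears on the counts for gene lists. The libraries had 13294 to 13664 genes at 1 TPM or more, and their log2 levels correlated across genes at 0.982 to 0.985 within groups, 0.968 to 0.971 between lines and 0.919 to 0.928 between states. Ribosomal RNA genes, 18 in number, took 1.43 and 1.63% of TPM in naive-like libraries, against 4.42 to 6.26% in primed libraries, and their part in the results was not tested beyond rescaling without those genes. Labels gave about 20000000 paired-end reads per library, but TPM keep no counts, so the depth behind each value is unknown. The labels do not say whether libraries of 1 group are separate cultures, so p-values here cover the scatter of these libraries, which may be technical. Rose and fell are said of called genes only, and the median given for a gene list is that of its log2 changes. In bulk RNA, fewer cells of a type and less RNA per cell cannot be told apart.

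Markers of pluripotent cells were high in every library. The sum of POU5F1, SOX2, NANOG, SALL4 and LIN28A was 3133 to 3461 TPM in naive-like libraries and 2392 to 2474 TPM in primed libraries. Neuroectoderm markers separated the states: SOX1, PAX6, RAX and LHX2 summed to 0.74 and 0.99 TPM in naive-like libraries, against 54.4 to 76.0 TPM in primed libraries. Of other cell types, the trophectoderm markers CDX2, GATA3 and TFAP2A, hypoblast markers GATA4, GATA6 and SOX17 and mesoderm markers TBXT, MESP1 and HAND1 were each under 1 TPM in all 6 libraries. So were the fibroblast marker POSTN and the germ cell markers DAZL and NANOS3, while the 6 fibroblast markers summed to 46.7 and 49.6 TPM in naive-like libraries, against 77.1 to 99.9 TPM in primed libraries, most of it COL1A1 and LUM. The 5 hypoblast and endoderm markers summed to 79.6 and 91.3 TPM in naive-like libraries, against 378 to 471 TPM in primed libraries, almost all of it APOA1. Sums of the remaining 3 marker lists stayed under 10 TPM: trophectoderm was 2.49 and 3.06 TPM in naive-like libraries and 5.02 to 8.68 TPM in primed libraries, mesoderm 1.20 and 1.91 TPM against 1.06 to 2.80 TPM, and germ cells 1.14 and 1.45 TPM against 0.778 to 1.56 TPM. Most of the trophectoderm sum was ELF5, at 1.995 and 2.25 TPM in naive-like libraries and 3.93 to 8.14 TPM in primed libraries. The markers FOXA2, TBX6 and DDX4 passed 1 TPM only in primed libraries, where they reached 1.92, 1.70 and 1.15 TPM. The part of the cells behind these marker sums in the results was not tested.

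Of 14481 genes, 45.1% were called: 3515 rose in naive-like cells (24.3%) and 3020 fell (20.9%). At least 2-fold changes were found in 702 rises (4.85%) and 993 falls (6.86%), and the median log2 change of all genes was 0.034. Both naive-like libraries lay above all 4 primed libraries in 32.9% of genes and below them in 27.4%. The number of rises was 2066 without naive-like replicate 1 and 2267 without replicate 2, and the number of falls was 1813 without naive-like replicate 2, so the counts rest on having both. Rescaled without ribosomal RNA genes, 3014 genes rose and 3430 fell. Rises of at least 4 on the log2 scale numbered 16, against 24 falls of that size. Counts for the gene lists below are to be read beside the shares of all genes, 24.3% rising and 20.9% falling.

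**Figure D1:**
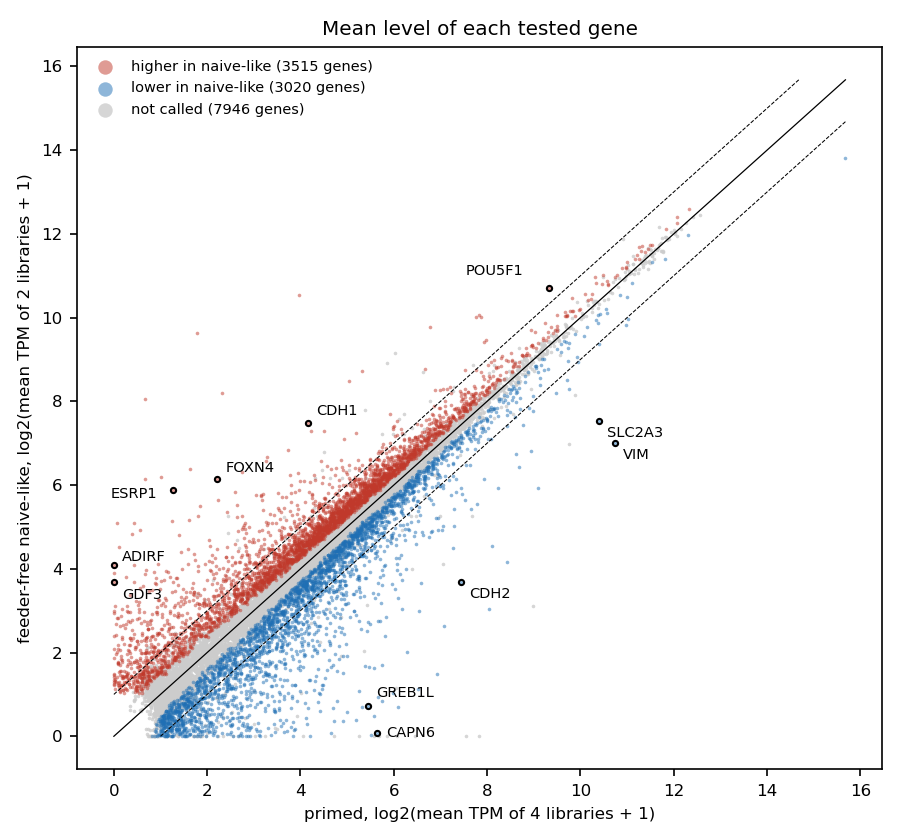
Mean level of each of the 14481 tested genes in the 2 feeder-free naive-like libraries (vertical) and the 4 primed libraries (horizontal), both as log2(mean TPM + 1), with equality as a solid line and 2-fold changes as dashed lines. Red points are the 3515 genes called higher in naive-like cells and blue points the 3020 called lower, and CDH1, ESRP1 and ADIRF stand far above the line while VIM, CDH2 and CAPN6 stand far below it.

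Some genes were read in a single state. With under 1 TPM in all 4 primed libraries and at least 5 TPM in both naive-like libraries there were 42 genes, and with the reverse 64. ADIRF, a small protein linked to adipocyte formation, was at 16.4 and 15.4 TPM in naive-like libraries and was listed at 0 in all 4 primed libraries. GDF3, a TGF-beta family ligand of pluripotent cells, was at 9.42 and 14.2 TPM in naive-like libraries and likewise listed at 0 in each primed library. SCNN1A, a subunit of the epithelial sodium channel, was at 16.4 and 15.9 TPM in naive-like libraries and at 0.244, 0.586, 0.317 and 0.218 TPM in primed libraries. The rule that chose these genes fixed that their groups do not overlap. RIPK4, a kinase of epithelial differentiation, stood at 13.6 and 12.5 TPM in naive-like libraries and 0.282, 0.208, 0.129 and 0.144 TPM in primed libraries. PTPRR, a tyrosine phosphatase that acts on ERK kinases, was at 29.2 and 26.2 TPM in naive-like libraries and 0.113, 0.311, 0.542 and 0.244 TPM in primed libraries. It rose by 4.47 ± 0.16 and RIPK4 by 3.56 ± 0.13. Outside this on and off group, the forkhead factor FOXN4 was at 73.7 and 66.5 TPM in naive-like libraries and 4.06, 3.23, 3.90 and 3.45 TPM in primed libraries, a rise of 3.93 ± 0.11. PPFIBP2, a liprin of the cell cortex, rose by 3.90 ± 0.14.

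On the primed side, GREB1L, a regulator of retinoic acid signalling in development, was at 0.746 and 0.580 TPM in naive-like libraries and at 41.1, 38.1, 46.8 and 44.4 TPM in primed libraries (−4.71 ± 0.11). PRTG, an immunoglobulin family receptor of the early neural epithelium, was at 0.0706 and 0.0319 TPM in naive-like libraries and 20.3, 19.2, 29.8 and 28.1 TPM in primed libraries. Its relative IGDCC3 was at 0.694 and 0.541 TPM against 59.9, 54.6, 81.9 and 72.4 TPM. Both receptors were thus under 1 TPM in naive-like cells and above 19 TPM in every primed library. ANKRD46, an ankyrin repeat protein, was at 0.507 and 0.310 TPM in naive-like libraries and 45.0, 46.7, 47.6 and 48.8 TPM in primed libraries (−5.10 ± 0.095). KITLG, the ligand of the receptor KIT, was at 0.200 and 0.804 TPM in naive-like libraries and at 51.7, 36.5, 15.8 and 19.9 TPM in primed libraries. It was lowest in naive-like cells, and line A stood above line B. DPYS, an enzyme of pyrimidine breakdown, changed by −4.84 against line A and −4.18 against line B, and the forkhead factor FOXB2 fell by 3.93 ± 0.13.

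Measured as TPM rather than as a ratio, the largest changes were in other genes. VIM, the intermediate filament of mesenchymal cells, fell to 126 and 129.6 TPM in naive-like libraries, against 1848, 1716, 1624 and 1623 TPM in primed libraries. SLC2A3, a glucose transporter, fell to 197 and 172 TPM in naive-like libraries, against 1574, 1493, 1157 and 1174 TPM in primed libraries. TMSB4X, which binds actin monomers, was at 939 and 1048 TPM against 1946, 2172, 2035 and 2091 TPM. Gains were led by RPS2, a ribosomal protein of a family with many gene copies whose reads may be split, at 5346 and 5517 TPM against 4192, 4439, 4189 and 4334 TPM. POU5F1, CD24 and CYP1A1, described below, were also among the 10 largest gains, with the chaperone HSPA8 (0.54 ± 0.054).

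POU5F1 and SOX2 were high in both states, and several core pluripotency genes were higher in naive-like cells, while DPPA4 was at 1.04 TPM or less in every library and GDF3 was listed at 0 in every primed library. Of 14 such genes tested, 7 rose and 2 fell (median 0.30). POU5F1, the central factor of the network, was at 1647 and 1706 TPM in naive-like libraries and 650.1, 662, 609.7 and 629 TPM in primed libraries (1.39 ± 0.056, adjusted p = 4.67e-06). SOX2, its partner, was at 323 and 293 TPM against 290.2, 296, 322 and 324 TPM, and the groups overlapped (adjusted p = 0.997 in limma). NANOG, a homeobox factor of the network, was at 136 and 92.6 TPM in naive-like libraries and 11.7, 9.12, 11.8 and 16.4 TPM in primed libraries. NANOG was separated without overlap (3.12 ± 0.23, adjusted p = 5.5e-05 in limma), as were 32.9% of all genes in that direction. PRDM14, a repressor of differentiation in mouse and human pluripotent cells, was at 56.5 and 49.9 TPM in naive-like libraries and 6.94, 6.67, 7.89 and 7.54 TPM in primed libraries. ZSCAN10 rose by 1.95 ± 0.15, FOXD3 by 1.18 ± 0.11 and the RNA-binding protein TRIM71 by 0.41 ± 0.071. The let-7 inhibitors LIN28A and LIN28B changed by −0.34 ± 0.10 and −0.52 ± 0.13, small falls whose adjusted p ran up to 0.20 and 0.13 when a library was left out. LIN28A lost its call without any library other than naive-like replicate 1, and LIN28B without naive-like replicate 2, so that the core list had 0 falls without that library. SALL4, UTF1, DPPA2 and DPPA4 were not called, although DPPA2 was without line B replicate 2.

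Few genes of the naive list were expressed. Of its 22 names only 6 passed the filter, and 3 of these rose (median 0.43). KLF5, a factor of early embryonic cells, was at 54.7 and 48.1 TPM in naive-like libraries and 11.3, 11.7, 11.8 and 9.73 TPM in primed libraries. KLF4 was at 4.71 and 3.79 TPM against 0.931, 1.14, 0.542 and 0.515 TPM, and TFCP2L1 at 2.83 and 2.94 TPM against 0.346, 0.427, 0.0425 and 0.0533 TPM, so both rose but stayed under 5 TPM. SUSD2, which marks the surface of naive cells in human, went the other way, at 10.3 and 12.4 TPM in naive-like libraries and 33.9, 26.9, 31.4 and 29.2 TPM in primed libraries (−1.35 ± 0.12). PRDM1, a transcriptional repressor that is on the germ cell list too, fell by 0.70 ± 0.20. That call was lost without line B replicate 2 (adjusted p = 0.052 in limma) and depended on having both naive-like libraries. Its change ran from −0.81 to −0.62 when a library was left out. GBX2, a naive factor in mouse, was listed at 0 in both naive-like libraries and stood at 0.613, 0.282, 2.24 and 2.10 TPM in primed ones, and it was not called (adjusted p = 0.0583 in limma) in the fit of 2 groups. It was called without line A replicate 2, with a pseudocount of 0.1, in the fit of 3 groups and against line B alone.

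Genes of the primed and formative states split. Among 23 tested, 14 fell and 7 rose, with a median of −1.09. SOX3, a SoxB1 factor of the epiblast and neural plate, was at 0.139 and 0.0368 TPM in naive-like libraries and 7.04, 6.46, 8.51 and 8.98 TPM in primed libraries. FGF5, the classical marker of the primed epiblast, was at 0.0613 and 0.0700 TPM against 1.34, 1.55, 1.63 and 0.994 TPM and so was low in primed cells too. POU3F1, a POU factor of the formative state in mouse, was at 6.40 and 5.76 TPM against 23.1, 21.9, 34.2 and 32.2 TPM, highest in line B. Of the zinc finger factors of the ZIC family, ZIC2 rose by 0.48 ± 0.077 and ZIC5 by 0.87 ± 0.14. SALL2 fell by 0.78 ± 0.063 and HMGA2 fell by 0.77 ± 0.098. OTX2, a homeobox factor of the primed epiblast, was at 311 and 285 TPM in naive-like libraries and 199, 194, 187 and 192 TPM in primed libraries, higher in naive-like cells in every library. The surface protein CD24 was at 1091 and 1039 TPM against 229, 219.6, 230.3 and 229 TPM, and TCF7L1, a repressor of WNT targets, at 127 and 122 TPM against 57.6, 55.9, 53.7 and 48.4 TPM. FZD7, a WNT receptor, rose by 0.39 ± 0.11 but not without either naive-like library (adjusted p up to 0.15). LEF1 fell by 1.14 ± 0.21 and TCF15 fell by 1.09 ± 0.17, and SOX11 and THY1 were not called.

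Feedback genes of FGF and ERK signalling, which ERK itself induces, were mostly lower. Of 22 ERK genes, 13 fell and 4 rose (median −0.68). Among phosphatases that switch ERK off, DUSP4 was at 1.00 and 0.850 TPM in naive-like libraries and 41.3, 42.1, 56.0 and 57.7 TPM in primed libraries, and DUSP6 at 27.9 and 29.7 TPM against 110.0, 102, 115 and 119.7 TPM. DUSP4 was the more separated of the pair, nearly off in naive-like cells. Of the Sprouty inhibitors, SPRY1 fell by 2.92 ± 0.10, SPRY4 fell by 1.93 ± 0.088 and SPRY2 fell by 0.46 ± 0.083, so that the paralogs differed in size by over 2 on the log2 scale. SPRED2 fell by 1.64 ± 0.11. The ETS factor ETV4, an output of FGF signalling, was at 23.1 and 25.2 TPM in naive-like libraries and 65.4, 56.6, 59.9 and 55.0 TPM in primed libraries, and its relative ETV5 at 13.4 and 12.6 TPM against 48.0, 45.3, 58.3 and 53.3 TPM. PHLDA1 fell by 2.29 ± 0.15 and the immediate early factor EGR1 fell by 1.21 ± 0.22. In the other direction, MYC was at 46.8 and 47.3 TPM in naive-like libraries and 12.3, 11.1, 14.1 and 14.6 TPM in primed libraries (1.79 ± 0.12), and IER3 rose by 1.47 ± 0.10, IER2 by 0.62 ± 0.094 and the receptor EPHA2 by 0.60 ± 0.13. EPHA2 was not called without naive-like replicate 1 (adjusted p = 0.071).

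FGF ligands and receptors were more often lower. Of 14, 7 fell and 2 rose (median −0.38), and the 2 rises were in FGF8 and FGF17, ligands of the same subfamily. FGF8 was at 5.29 and 5.71 TPM in naive-like libraries and 0.485, 0.462, 0.415 and 0.582 TPM in primed libraries. FGF17 was at 4.30 and 4.46 TPM against 0.0544, 0.0560, 0 and 0 TPM. Both were on in naive-like cells and under 1 TPM in each primed library, so they passed the filter through the naive-like libraries alone. Without that filter, 3 of 21 genes of the list rose and 5 fell (median −0.15). With it, 5 fell without line A replicate 1. FGF10, a ligand of FGFR2, was listed at 0 in both naive-like libraries and at 2.06, 2.89, 2.78 and 2.66 TPM in primed libraries. FGF13, an intracellular member that is not secreted, fell by 1.15 ± 0.083. Of the receptors, FGFR3 was at 10.4 and 9.89 TPM in naive-like libraries and 37.8, 32.7, 40.1 and 32.3 TPM in primed libraries (−1.71 ± 0.11), and FGFR2, named after its values were seen, fell by 0.53 ± 0.092.

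Targets of Nodal and Activin were higher, although Activin A was at 20 ng/mL in both media. Of 11 tested, 8 rose and 0 fell, and the median change was 1.94. NODAL and EOMES, under 1 TPM in every primed library, passed the filter through the naive-like libraries alone. With no filter on low values, 8 of 15 rose and 2 fell (median 0.73). The ligand NODAL was at 32.7 and 33.8 TPM in naive-like libraries, against 0.0535, 0, 0 and 0.108 TPM in primed libraries. Feedback inhibitors of the SMAD pathway rose with it. SMAD7, which blocks the receptors, was at 35.8 and 37.6 TPM in naive-like libraries and 4.35, 5.04, 5.70 and 5.79 TPM in primed libraries. PMEPA1, which sequesters SMAD proteins, was at 39.8 and 40.6 TPM against 4.62, 3.16, 5.21 and 4.38 TPM, and the SMAD repressor SKIL at 96.1 and 76.5 TPM against 18.4, 22.3, 26.8 and 23.1 TPM. All 3 were separated without overlap, as were 32.9% of all genes in that direction. SMAD7 rose by 2.61 ± 0.12 (adjusted p = 8.63e-06 in limma). Among developmental targets, EOMES, a T-box factor of mesoderm and endoderm, was at 30.2 and 28.3 TPM in naive-like libraries and 0.210, 0.484, 0.556 and 0.628 TPM in primed libraries. FOXH1, the DNA-binding partner of SMADs, rose by 0.73 ± 0.18, a call that ended without either naive-like library (adjusted p up to 0.091). The secreted Activin antagonist FST (232 and 240.4 TPM against 236, 214, 292 and 291 TPM), TGIF1 and the receptor ACVR2B were not called.

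**Figure D2:**
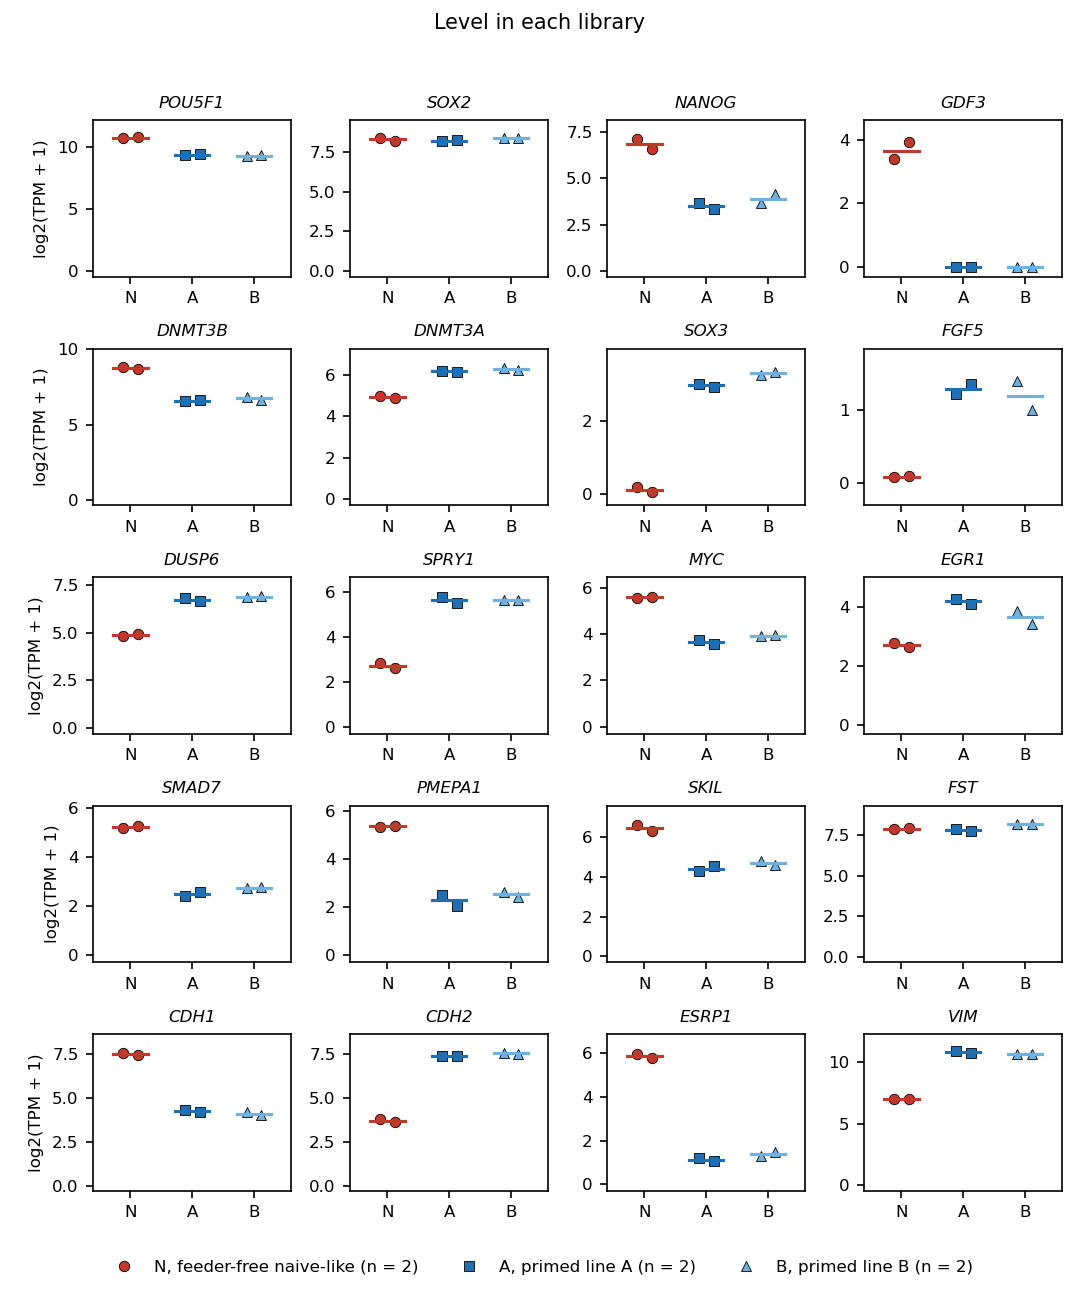
Level of 20 genes in each library, as log2(TPM + 1), with feeder-free naive-like libraries (N, red circles), primed line A (A, blue squares) and primed line B (B, light blue triangles). Each point is 1 library and each line the mean of 2, and the groups overlap in SOX2 and FST, while SMAD7, PMEPA1 and SKIL are higher and DUSP6, SPRY1 and EGR1 lower in both naive-like libraries.

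Genes of LIF signalling, a list that holds the receptor chain CNTFR beside outputs, were partly higher. Of 18 genes of that pathway, 9 rose and 3 fell (median 0.46). Among the 11 at a mean of at least 5 TPM, 3 rose and 3 fell (median 0.085), so the excess of rises was not seen there. SOCS3, a feedback inhibitor induced by STAT3, was at 26.4 and 26.7 TPM in naive-like libraries and 9.20, 9.86, 12.4 and 12.2 TPM in primed libraries, and its relative SOCS1 at 6.68 and 9.14 TPM against 1.58, 1.54, 1.75 and 2.36 TPM. STAT3 itself rose by 0.61 ± 0.079, BCL3 by 1.53 ± 0.21 and JUNB by 1.26 ± 0.20. Of the receptor chains, LIFR was at 6.14 and 3.82 TPM in naive-like libraries and 6.01, 5.43, 6.06 and 6.37 TPM in primed libraries, and its partner IL6ST at 15.4 and 11 TPM against 10.6, 10.6, 9.98 and 10.3 TPM, and neither was called with all 6 libraries, though LIFR was without naive-like replicate 1 and IL6ST without replicate 2. CNTFR, the alpha chain that joins both for another cytokine, was at 1.45 and 0.922 TPM in naive-like libraries against 105, 96.0, 84.9 and 79.2 TPM in primed libraries. The level of this one chain therefore differed where those of its partners were not called. GADD45G, a stress-response gene, was at 0.159 and 0.178 TPM against 14.4, 13.7, 13.1 and 10.0 TPM. STAT3, BCL3, JUNB, LIFR and IL6ST were named after their values were seen.

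WNT targets were lower, with 6 of 8 falling and 1 rising (median −1.33), in media that both held a tankyrase inhibitor. Without a filter on low values, 6 of 15 fell and 0 rose (median −0.36). AXIN2, the feedback inhibitor that serves as the general readout of WNT activity, was at 1.04 and 1.56 TPM in naive-like libraries and 5.83, 5.68, 5.59 and 5.15 TPM in primed libraries. SP5, a zinc finger target, was at 0.663 and 1.48 TPM against 11.5, 10.3, 8.32 and 12.4 TPM, and its relative SP8 at 0.397 and 0.208 TPM against 32.1, 31.4, 39.3 and 39.5 TPM. All 3 were separated without overlap, which the rule that named SP8 fixed for that gene, beside 27.4% of all genes in that direction. BAMBI, a decoy receptor of TGF-beta signalling, fell by 1.67 ± 0.15, NKD2 fell by 0.48 ± 0.072, and TCF7, named after its values were seen, rose by 0.55 ± 0.14 with both naive-like libraries in the fit (adjusted p up to 0.089 without one of them). Of 13 genes for tankyrases and the complex that degrades beta-catenin, 3 fell and 1 rose (median −0.14), with 5 falls without naive-like replicate 1 and 1 without replicate 2, where no gene rose. With all libraries, the share of falls was near that of all genes.

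In BMP signalling 6 of 15 genes rose and 5 fell (median 0.034), with 3 falls without naive-like replicate 2. The ligand BMP4 was at 71.1 and 62.7 TPM in naive-like libraries and 19.9, 17.9, 17.5 and 14.1 TPM in primed libraries. Its secreted antagonists moved in the other direction. NOG was at 0 and 0.159 TPM in naive-like libraries and 3.62, 2.12, 3.48 and 3.20 TPM in primed libraries, and CHRD at 1.65 and 1.29 TPM against 9.26, 7.39, 9.02 and 6.81 TPM. Of the ID genes that BMP induces, ID1 rose by 1.18 ± 0.13 and ID4 by 0.66 ± 0.069, and the receptor BMPR1B, named after its values were seen, by 1.14 ± 0.14. Notch genes were more often lower, with 8 of 15 falling and 3 rising (median −0.48), with 1 rise without naive-like replicate 1. The ligand DLL1 was listed at 0 in both naive-like libraries and was at 1.80, 1.64, 1.75 and 1.81 TPM in primed libraries, the ligand JAG1 fell by 2.29 ± 0.18, the glycosyltransferase LFNG, which tunes Notch receptors, fell by 2.54 ± 0.086 and the target HEY1 fell by 1.41 ± 0.13. The target HES1, named after its values were seen, rose by 0.77 ± 0.11.

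Targets of the aryl hydrocarbon receptor, a ligand-activated factor that binds planar aromatic compounds, were mostly higher. Of 9 genes, 6 rose and 2 fell (median 0.70) with all libraries, and the numbers of rises and falls depended on having both naive-like libraries. The median was 0.58 without naive-like replicate 1 and 0.81 without replicate 2. Beside the cytochrome P450 gene CYP1A1, which changed most of all genes named here (7.85 ± 0.11, adjusted p = 1.68e-07), the repressor AHRR, which the receptor induces, was at 22.2 and 20.4 TPM in naive-like libraries and 2.47, 2.12, 1.92 and 1.49 TPM in primed libraries. TIPARP, also induced by the receptor and a brake on it, was at 44.2 and 46.2 TPM against 13.4, 14.7, 13.8 and 15.1 TPM. The quinone reductase NQO1, shared with the NRF2 response, was at 58.2 and 54.2 TPM in naive-like libraries and 4.95, 3.43, 6.76 and 5.19 TPM in primed libraries. The groups did not overlap in any of these. The rule that named CYP1A1 fixed this for that gene, and 32.9% of all genes lay higher without overlap. The receptor gene AHR, named after its values were seen, rose by 0.70 ± 0.15, which was not called without naive-like replicate 1 (adjusted p = 0.068). In the wider antioxidant and glutathione list, which holds NQO1 too, 6 of 17 rose and 2 fell (median 0.23), with 3 rises without naive-like replicate 2 and 0 and 1 falls without naive-like replicate 1 and 2. TXNRD1 rose by 0.66 ± 0.078 and GCLC, the first enzyme of glutathione synthesis, by 0.69 ± 0.10.

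Epithelial genes were higher and mesenchymal genes lower. Of 20 epithelial genes, 17 rose and 2 fell (median 1.44), and of 14 mesenchymal genes, 1 rose and 11 fell (median −1.74). With no filter on low values, 18 of 24 epithelial genes rose and 2 fell (median 1.27). In that setting 1 of 18 mesenchymal genes rose and 10 fell (median −0.66). The classical cadherins changed in opposite directions. CDH1, the epithelial one, was at 186 and 169 TPM in naive-like libraries and 18.7, 16.8, 17.0 and 15.1 TPM in primed libraries (3.32 ± 0.096, adjusted p = 1.69e-06). CDH2, the neural and mesenchymal one, was at 12.7 and 11.1 TPM in naive-like libraries and 165, 161, 185 and 179 TPM in primed libraries (−3.75 ± 0.087, adjusted p = 8.67e-07). The placental cadherin CDH3 rose by 2.88 ± 0.11. EPCAM, an adhesion molecule of epithelia, was at 437 and 401 TPM against 41.6, 31.5, 43.4 and 39.8 TPM. ESRP1, a splicing regulator of epithelial isoforms, was at 62.0 and 54.7 TPM in naive-like libraries and 1.30, 1.07, 1.49 and 1.75 TPM in primed libraries. AP1M2, an adaptor for sorting to the basolateral membrane, was at 30.7 and 35.3 TPM against 0.271, 0.222, 0.499 and 0.443 TPM. Both were at or under 2 TPM in every primed library.

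Among epithelial genes were proteases of the cell surface. PRSS8, a membrane serine protease, was at 48.7 and 49.2 TPM in naive-like libraries and 6.08, 4.96, 1.4 and 2.49 TPM in primed libraries. ST14, the protease that acts with it, was at 34.1 and 35.5 TPM against 2.93, 2.99, 1.39 and 0.935 TPM. Their inhibitor SPINT1 was at 23.5 and 26.1 TPM in naive-like libraries and 3.77, 3.47, 3.31 and 1.95 TPM in primed libraries, and the sodium channel subunit SCNN1A, a known substrate of such proteases, was described above. The repressor OVOL1 rose by 2.31 ± 0.14. It and PRSS8, ST14 and SPINT1 were named after their values were seen. The keratins of simple epithelia did not move as one group. KRT8 was at 15.2 and 18.4 TPM in naive-like libraries and 414, 398, 283 and 286 TPM in primed libraries, and KRT18, its partner in filaments, at 44.8 and 46.5 TPM against 246, 229.9, 197 and 203 TPM. KRT19 was at 290.2 and 328 TPM in naive-like libraries and 122, 122, 113 and 109.8 TPM in primed libraries. KRT8 and KRT18 fell while KRT19 rose.

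Tight junction genes rose in 11 of 17 cases and fell in 3 (median 0.79), with 0 falls without naive-like replicate 2 and 1 without line B replicate 2. CLDN7, which reached 286 and 303 TPM in naive-like libraries, against 2.17, 4.9, 4.92 and 4.09 TPM in primed libraries, was joined by CLDN6 (1.23 ± 0.082), the junctional adhesion molecule F11R (1.59 ± 0.10), MARVELD3 (2.27 ± 0.19) and the cingulin relative CGNL1 (2.04 ± 0.11). Of gap junction and pannexin genes, 1 of 5 rose and 1 fell (median 0.017), shares near those of all genes. The fall was GJA1, at 1.20 and 0.894 TPM in naive-like libraries and 53.3, 52.0, 73.4 and 70.3 TPM in primed libraries. Repressors of epithelial genes went both ways. ZEB1 fell by 2.33 ± 0.11 and ZEB2 fell by 3.14 ± 0.12, whereas SNAI1, named after its values were seen, rose by 1.19 ± 0.14. CDH11, a cadherin of mesenchyme, was at 0.695 and 0.484 TPM in naive-like libraries and 23.0, 21.9, 28.3 and 27.1 TPM in primed libraries.

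Collagen IV, the network protein of basement membranes, has 6 genes arranged in 3 pairs of neighbours, each pair sharing a promoter region in mammals. In RefSeq's sheep assembly ARS-UI_Ramb_v3.0, COL4A1 lies beside COL4A2, COL4A3 beside COL4A4 and COL4A5 beside COL4A6, with 0 protein-coding genes starting between the members of a pair. The pairs did not change alike. COL4A3 was at 24.9 and 19 TPM in naive-like libraries and 0.0114, 0.105, 0.0816 and 0.144 TPM in primed libraries. COL4A4 was at 78.0 and 61.6 TPM in naive-like libraries and 0.594, 0.437, 0.708 and 0.615 TPM in primed libraries. Both members of this pair were on in naive-like cells and under 1 TPM in primed cells (4.39 ± 0.15 and 5.47 ± 0.14). COL4A1 was at 39.9 and 34.7 TPM against 50.1, 40.2, 46.7 and 42.4 TPM, COL4A2 at 31.2 and 31.7 TPM against 38.0, 33.4, 38.5 and 34.5 TPM, and neither was called. In both genes each naive-like library lay below every primed one, as in 27.4% of all genes. COL4A5 fell by 0.90 ± 0.19 and COL4A6 fell by 0.89 ± 0.11. These 2 gene models overlap in the assembly, so how reads were divided between them is uncertain, and COL4A5 was not called without naive-like replicate 2 (adjusted p = 0.076). COL4A1, COL4A2, COL4A5 and COL4A6 were named after their values were seen.

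Other basement membrane genes split, with 6 of 18 on the list rising and 8 falling (median −0.26). After rescaling without ribosomal RNA genes 11 fell, so calls of small falls on this list depend on the scaling. Among laminin chains, LAMA1 was at 2.07 and 1.91 TPM in naive-like libraries and 12.2, 10.6, 14.5 and 13.1 TPM in primed libraries, and LAMA4 at 11.2 and 9.81 TPM against 1.70, 1.27, 2.32 and 1.90 TPM. LAMA1 fell and LAMA4, named after its values were seen, rose. The linker NID1 fell by 1.53 ± 0.11. Integrins and their linkers split as well, with 9 of 26 rising and 8 falling (median −0.11) (5 and 4 falls without naive-like replicate 1 and 2). Over all genes, 24.3% rose and 20.9% fell. ITGB5 was at 72.9 and 76.8 TPM in naive-like libraries and 13.6, 11.7, 12.5 and 13.1 TPM in primed libraries, and the hemidesmosome chain ITGB4 at 33.7 and 33.6 TPM against 9.49, 9.18, 8.81 and 6.64 TPM. ITGA3, a laminin receptor chain, rose by 1.68 ± 0.14, and ITGA5, the fibronectin receptor chain, fell by 1.68 ± 0.11. The membrane linkers ezrin and moesin are paralogs and moved apart. EZR was at 274 and 287 TPM in naive-like libraries and 174, 165, 181 and 172 TPM in primed libraries, and MSN at 0.473 and 1.09 TPM against 84.3, 76.0, 27.3 and 23.4 TPM.

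**Figure D3:**
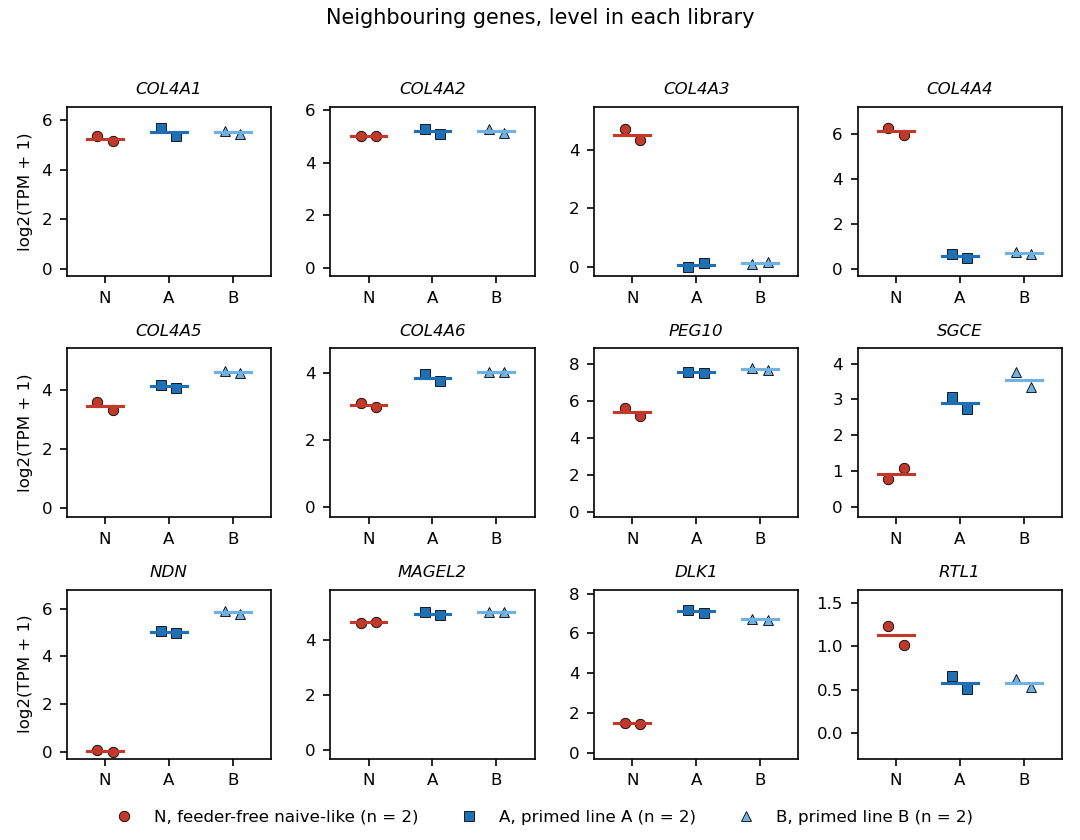
Level of 12 genes in each library, as log2(TPM + 1), for feeder-free naive-like libraries (N, red circles), primed line A (A, blue squares) and primed line B (B, light blue triangles), each point 1 library and each line a mean of 2. COL4A3 and COL4A4 are on only in naive-like libraries, PEG10 and SGCE fall together, and NDN and DLK1 fall without their neighbours MAGEL2 and RTL1 falling by a like amount.

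Genes of other lineages were mostly lower where they were read at all. In neuroectoderm, 12 of 13 genes fell and 0 rose, with a median of −2.87. SOX1, PAX6, RAX and LHX2, under 1 TPM in both naive-like libraries, passed the filter through the primed libraries alone. Fitted with no filter on low values, 12 of 20 fell and 0 rose (median −1.11). LHX2, a homeobox factor of forebrain and eye, was at 0.828 and 0.423 TPM in naive-like libraries and 37.5, 33.2, 43.6 and 40.9 TPM in primed libraries. SIX3, a homeobox factor of the anterior neural plate, was at 4.50 and 6.29 TPM against 43.5, 45.7, 42.6 and 43.6 TPM. SIX3 stayed above 4 TPM in naive-like cells, and LHX2 did not. LHX5 fell by 3.20 ± 0.11. SOX1, PAX6 and RAX, named as cell type markers, changed by −3.30 ± 0.24, −3.31 ± 0.21 and −2.87 ± 0.14. Whether these transcripts came from all primed cells or from some of them was not tested.

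Of 8 hypoblast genes, 5 fell and 1 rose (median −1.02), with 7 falls after rescaling without ribosomal RNA genes. When low values were not filtered, 5 of 19 fell and 1 rose (median −0.077). GATA4, GATA6 and SOX17 were under 1 TPM in every library. The marker FOXA2 was at 0.218 and 0.239 TPM in naive-like libraries and 0.995, 0.890, 1.32 and 1.92 TPM in primed libraries. The falls included genes shared with other tissues, such as the apolipoprotein APOA1 (79.3 and 90.9 TPM in naive-like libraries and 469, 420.5, 381 and 376 TPM in primed libraries) and the matrix protein SPARC (−1.22 ± 0.067). Trophectoderm genes numbered 6, of which 2 rose and 4 fell (median −1.73). Without the filter, 3 of 14 rose and 4 fell (median −0.0011). TEAD4, the factor that starts this lineage in mouse, was at 0.437 and 0.596 TPM in naive-like libraries and 9.06, 8.49, 10.8 and 10.7 TPM in primed libraries. VGLL1, a TEAD cofactor, was at 8.28 and 6.30 TPM against 0.112, 0.0653, 0.108 and 0.242 TPM. TEAD4 fell and VGLL1 rose. Of 4 streak and mesoderm genes, 2 rose, GSC and EOMES, and 2 fell, FOXA2 and the chemokine receptor CXCR4 (−1.21 ± 0.14). The median was 1.75, and 1 gene fell without either naive-like library. With no filter on low values, 3 of 16 rose and 3 fell (median 0). Of 4 germ cell genes, 2 fell and 0 rose (median −0.59), with 1 fall without either naive-like library or line B replicate 2. When low values were not filtered, 2 of 14 germ cell genes rose and 2 fell (median −0.013). Fibroblast genes fell in 10 of 16 cases and rose in 0 (median −0.67), with 1 rise without line A replicate 1 and 8 falls without line A replicate 2. The number of fibroblast falls also depended on having both naive-like libraries. The fibroblast median was −0.84 without naive-like replicate 1 and −0.49 without replicate 2. The receptor PDGFRB was at 0.801 and 0.959 TPM in naive-like libraries and 14.3, 12.7, 13.9 and 11.2 TPM in primed libraries, collagen COL1A1 at 28 and 28.5 TPM against 63.2, 52.6, 54.9 and 48.2 TPM, COL3A1 fell by 1.53 ± 0.20 and the actin-binding TAGLN fell by 0.99 ± 0.056. Targets of YAP and TEAD, factors that respond to cell spreading, fell in 7 of 16 cases and rose in 1 (median −0.19; 0 rises without either naive-like library, either library of line A or line B replicate 2), with the largest falls in ANKRD1 (−2.86 ± 0.12), TEAD4 and the receptor kinase AXL (−1.93 ± 0.11).

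Glycolysis genes were lower, with 20 of 24 falling and 0 rising and a median of −0.53, although 13 fell without naive-like replicate 1 and 12 without replicate 2. Falls were unequal along the pathway. At the entry, the hexokinase HK2 was at 16.8 and 15.1 TPM in naive-like libraries and 63.6, 65.1, 45.9 and 45.2 TPM in primed libraries, beside SLC2A3. In the trunk, PGAM1 was at 661 and 664 TPM against 1402, 1419, 1243 and 1338 TPM, and TPI1, GPI and ALDOA changed by −0.84 ± 0.093, −0.72 ± 0.13 and −0.51 ± 0.10. At the exit, LDHA, which makes lactate, was at 318 and 313 TPM in naive-like libraries and 892, 977, 706 and 874 TPM in primed libraries. Its paralog LDHB, the form that favours pyruvate, was at 1169 and 1216 TPM against 1189.8, 1221, 1253 and 1234 TPM and was not called. PDK1, the kinase that shuts pyruvate dehydrogenase, was at 1.95 and 2.38 TPM in naive-like libraries and 46.8, 52.8, 34.6 and 39.0 TPM in primed libraries, the largest change of the list, and the lactate exporter SLC16A3 fell by 1.91 ± 0.18. ENO1 and GAPDH had small falls that were not called without either naive-like library (adjusted p up to 0.14 and 0.19), and GAPDH was not called without line A replicate 2 either. The fall of ALDOA was not called without naive-like replicate 1 (adjusted p = 0.055). HK2, TPI1, GPI, ALDOA and LDHB were named after their values were seen.

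Targets of the hypoxia factors were lower in cultures kept in ambient oxygen, with 15 of 19 falling and 1 rising (median −1.28). The rise was lost without either library of line A or line B replicate 2. Calls on this list, mainly of falls, also depended on having both naive-like libraries. The median was −1.13 without naive-like replicate 1 and −1.19 without replicate 2. The mitophagy receptor BNIP3 was at 24.8 and 20.2 TPM in naive-like libraries and 350.1, 335, 205 and 215 TPM in primed libraries, and its relative BNIP3L at 30.4 and 28.7 TPM against 129, 134, 111 and 115 TPM. ANKRD37 was at 0.182 and 0 TPM in naive-like libraries and 14.5, 15.8, 9.81 and 8.41 TPM in primed libraries, and the mTORC1 inhibitor DDIT4 at 105 and 107 TPM against 432, 425, 355 and 346 TPM. Each was separated without overlap, as were 27.4% of all genes in that direction. EGLN1, the oxygen-sensing hydroxylase, fell by 0.95 ± 0.084, and the angiogenic ligand VEGFA fell by 1.54 ± 0.33, though not without naive-like replicate 1 (adjusted p = 0.071). EGLN1 and VEGFA were named after their values were seen.

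Genes of mitochondrial respiration changed in both directions, beside 24.3% of all genes rising and 20.9% falling. In the respiratory chain the share of rises was near that of all genes, and the share of falls was below it. Of 21 citric acid cycle genes, 9 rose and 3 fell (median 0.18). The pyruvate dehydrogenase subunit PDHB was at 180.4 and 173 TPM in naive-like libraries and 104, 103, 115 and 121 TPM in primed libraries (0.67 ± 0.084). IDH1 rose by 0.85 ± 0.061 and the catalytic IDH3A by 0.69 ± 0.075, while its partner subunit IDH3B fell by 0.77 ± 0.074 and MDH1 fell by 0.48 ± 0.058. Subunits of a single enzyme complex thus moved in opposite directions. In the respiratory chain 6 of 21 genes rose and 2 fell (median 0.036), with 3 and 3 after rescaling without ribosomal RNA genes and 3 and 2 rises without naive-like replicate 1 and 2, and 0 falls without either, and 1 fall without either library of line A or line B replicate 1. COX5A rose by 0.27 ± 0.049, SDHA by 0.40 ± 0.072 and NDUFV1 by 0.44 ± 0.084, of which NDUFV1 was not called without naive-like replicate 2 (adjusted p = 0.053).

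Cholesterol synthesis was higher along most of its length, with 13 of 18 genes rising and 1 falling (median 0.46). Farnesyl diphosphate synthase FDPS was at 825 and 849 TPM in naive-like libraries and 494, 498, 473 and 494 TPM in primed libraries. The sterol enzymes NSDHL (0.81 ± 0.064) and DHCR7 (0.78 ± 0.094) and the isomerase IDI1 (0.62 ± 0.059) rose too, all by less than 2-fold. In serine and one-carbon metabolism 7 of 15 fell and 3 rose (median −0.20), with 4 falls without naive-like replicate 1 and 1 without replicate 2. PSAT1, of serine synthesis, was at 33.5 and 35.1 TPM in naive-like libraries and 77.3, 79.9, 107 and 99.9 TPM in primed libraries. The cytosolic hydroxymethyltransferase SHMT1 was at 26.4 and 25.9 TPM against 13.2, 12.4, 15.3 and 12.8 TPM, and MAT2A, which makes the methyl donor S-adenosylmethionine, rose by 0.62 ± 0.089.

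Imprinted genes, expressed largely from a single parental copy, were more often lower. Of 19 tested, 13 fell and 5 rose (3 rises without naive-like replicate 1), with a median of −1.16. MEST, a paternally expressed hydrolase gene, was at 0.368 and 0.389 TPM in naive-like libraries and 6.69, 6.12, 5.93 and 6.0 TPM in primed libraries. The growth factor IGF2 was at 0.109 and 0.387 TPM against 8.47, 9.62, 6.51 and 5.68 TPM, and IGF2R, which clears that ligand and is maternally expressed in mouse, at 44.2 and 39.97 TPM against 25.1, 23.4, 26.7 and 23.0 TPM. Ligand and clearance receptor stood in opposite order. CDKN1C, a maternally expressed inhibitor of the cell cycle, fell by 1.30 ± 0.089 and the adaptor GRB10 rose by 0.64 ± 0.11.

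Neighbours in imprinted regions were set side by side. PEG10, derived from a retrotransposon, was at 48.8 and 35.3 TPM in naive-like libraries and 193, 186, 221 and 204 TPM in primed libraries. SGCE, its neighbour in the RefSeq assembly, was at 0.696 and 1.11 TPM against 7.45, 5.62, 12.6 and 9.20 TPM. Their changes were −2.24 ± 0.13 and −2.31 ± 0.27. NNAT and BLCAP, whose gene models overlap, changed by −0.43 ± 0.064 and −0.45 ± 0.091, and PEG3 and ZIM2, with 3 protein-coding genes starting between them, by −1.43 ± 0.31 and −1.16 ± 0.16. PEG3 was not called without naive-like replicate 2 (adjusted p = 0.077). Other neighbours differed in the size or the direction of their change. NDN, a MAGE family protein, was at 0.0531 and 0 TPM in naive-like libraries and 32.9, 30.6, 59.7 and 54.8 TPM in primed libraries, but its neighbour MAGEL2 was at 23.1 and 24.0 TPM against 31.0, 28.5, 30.7 and 31.1 TPM, a change of −0.35 ± 0.075 that was not called without naive-like replicate 1 (adjusted p = 0.055). DLK1, a Notch ligand relative, was at 1.88 and 1.75 TPM against 145, 129, 106 and 102 TPM, and its neighbour RTL1 at 1.36 and 1.03 TPM against 0.578, 0.417, 0.540 and 0.448 TPM, lower on the whole but higher in naive-like cells. RTL1 was not called without naive-like replicate 1 (adjusted p = 0.12). DIO3, which inactivates thyroid hormone and lies beyond RTL1, was at 0.119 and 0 TPM in naive-like libraries and 6.36, 4.80, 4.88 and 6.45 TPM in primed libraries. The pairs other than those with PEG10, NDN, DLK1 and DIO3, and the neighbours SGCE, MAGEL2 and RTL1, were named after their values were seen, as were IGF2, IGF2R and GRB10.

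Shares of DNA methylation regulators were near those of all genes, 4 of 14 up and 4 down (median 0.15) (2 down without naive-like replicate 2 and also without line B replicate 1). The de novo enzymes DNMT3B and DNMT3A changed in opposite directions. DNMT3B was at 459 and 418 TPM in naive-like libraries and 94.1, 96.5, 113 and 99.5 TPM in primed libraries. DNMT3A was at 30.9 and 28.8 TPM in naive-like libraries and 72.9, 69.8, 79.3 and 74.3 TPM in primed libraries. DNMT3B exceeded DNMT3A by over 10 times in naive-like cells and by under 2 times in primed cells. The oxidase TET2, which starts the removal of methylation, fell by 1.36 ± 0.12, and TRIM28, a cofactor that protects imprints, rose by 0.51 ± 0.061. Among Polycomb genes 6 of 19 fell and 3 rose (median −0.17). The histone methyltransferase EZH2 was at 45.2 and 44.3 TPM in naive-like libraries and 84.5, 84.2, 94.5 and 90.2 TPM in primed libraries, the ring finger protein BMI1 at 46.9 and 39.1 TPM against 15.9, 19.3, 22.0 and 21.7 TPM, and the reader CBX8 fell by 1.77 ± 0.18.

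Targets of p53 were more often higher, with 10 of 17 rising and 3 falling (median 0.77), and 0 falling without naive-like replicate 2 but 5 after rescaling without ribosomal RNA genes. PHLDA3, an inhibitor of AKT, was at 75.6 and 74.7 TPM in naive-like libraries and 17.4, 14.8, 22.2 and 19.9 TPM in primed libraries. BAX, which opens mitochondria in apoptosis, was at 149 and 172 TPM against 74.4, 69.1, 71.6 and 64.4 TPM, and the BH3-only gene PMAIP1 at 46.5 and 38.6 TPM against 15.6, 10.8, 9.52 and 10.4 TPM. TP53I3 rose by 1.43 ± 0.095, CCNG1 by 0.77 ± 0.066, AEN by 0.84 ± 0.068 and the death receptor FAS, named after its values were seen, by 2.09 ± 0.22. On the wider apoptosis list 4 of 16 rose and 2 fell (median 0.056), with 2 rises without naive-like replicate 1 and 1 fall without either naive-like library or line B replicate 1. Its share of rises was near that of all genes. Shares of cell cycle genes were near those of all genes, 7 up and 4 down (median −0.082) of 23, or 5 up and 6 down after rescaling without ribosomal RNA genes, and 4 up without naive-like replicate 1 and 3 up and 2 down without replicate 2. Within them CDK6, a kinase of the G1 phase, was at 12.3 and 10.5 TPM in naive-like libraries and 0.816, 0.889, 1.1 and 0.679 TPM in primed libraries. The inhibitor CDKN1B rose by 0.77 ± 0.089, the cyclin CCNE2 fell by 0.79 ± 0.11 and the replication clamp PCNA rose by 0.44 ± 0.061.

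Genes for ATF4 and endoplasmic reticulum stress rose in 7 of 17 cases and fell in 2 (median 0.21), with 0 falls without naive-like replicate 1 and 0 without replicate 2. The chaperone HSPA5 was at 491 and 487 TPM in naive-like libraries and 252, 233, 295 and 302 TPM in primed libraries, and ATF3 rose by 1.28 ± 0.16. Of the kinases that the naive-like medium inhibits, 3 of 13 SRC family and protein kinase C genes rose and 5 fell (median −0.18), with 3 falls without naive-like replicate 1 and 1 without replicate 2. LCK, known as a kinase of T cells, was at 77.6 and 77.0 TPM in naive-like libraries and 15.1, 15.8, 14.6 and 12.6 TPM in primed libraries. FYN was at 26.8 and 25.5 TPM against 43.8, 48.7, 42.0 and 42.4 TPM, PRKCB rose by 1.06 ± 0.18, and PRKCE, named after its values were seen, fell by 1.20 ± 0.30, though not without either naive-like library (adjusted p up to 0.10).

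**Figure D4:**
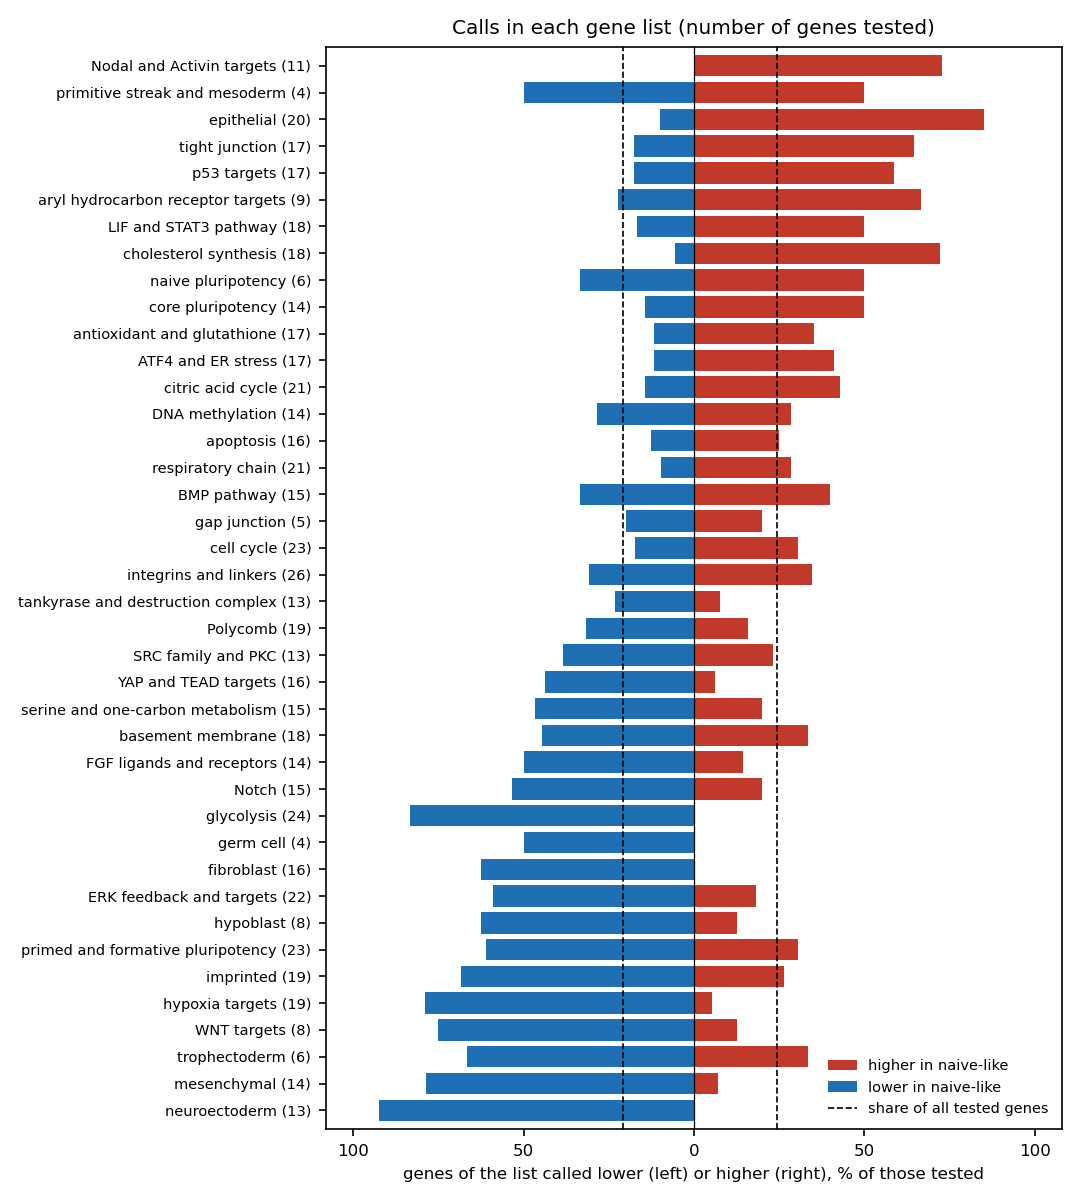
Share of the tested genes of each of 40 lists called higher (red, to the right) or lower (blue, to the left) in feeder-free naive-like cells than in primed cells, in percent, with the number tested in brackets and the lists ordered by median change. Dashed lines mark the shares over all 14481 genes, 24.3% higher and 20.9% lower, and the neuroectoderm, mesenchymal, hypoxia and glycolysis lists lie far past the left line and the epithelial, Nodal and cholesterol lists past the right one.

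How far the changes held for each primed line was read by setting the naive-like libraries against line A and against line B in a fit of 3 groups. These contrasts share the naive-like libraries and are given side by side. Against line A, 7190 genes were called (49.7%), 4083 higher (28.2%) and 3107 lower (21.5%), and against line B 7064 (48.8%), 3543 higher (24.5%) and 3521 lower (24.3%). A call in the same direction against each line was made for 2963 rises and 2609 falls, and 61 genes were called in opposite directions. The lines themselves differed in 772 genes (5.33%), 411 higher in line B (2.84%) and 361 higher in line A (2.49%), and that count was 227 to 263 when a primed library was left out. Among the 251 genes whose lines differed by at least 2-fold, the naive-like libraries lay nearer to line A in 159 and nearer to line B in 92.

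Several genes lay between the lines. NES, an intermediate filament of neural precursors, was at 34.5 and 38.7 TPM in naive-like libraries, 74.6 and 66.6 TPM in line A and 14.6 and 12.7 TPM in line B. It was thus lower than line A (−0.93) and higher than line B (1.36). BHMT, a methyltransferase of homocysteine, was at 5.99 and 4.99 TPM in naive-like libraries, 33.1 and 34.3 TPM in line A and 1.46 and 1.75 TPM in line B. PLAAT1, a phospholipid enzyme, stood at 8.30 and 9.29 TPM in naive-like libraries, 16.8 and 14.7 TPM in line A and 1.24 and 2.44 TPM in line B. The claudin CLDN11 was at 1.43 and 1.80 TPM in naive-like libraries, 3.45 and 4.48 TPM in line A and 0.299 and 0.108 TPM in line B. In each of these the naive-like libraries stood between the lines. The succinyl-CoA ligase subunit SUCLG2 was at 60.0 and 56.8 TPM in naive-like libraries, 26.1 and 27.9 TPM in line A and 59.8 and 62.8 TPM in line B, so it changed by 1.09 against line A and −0.069 against line B. TYMS, which makes thymidylate, was at 143 and 144 TPM in naive-like libraries, 121 and 123 TPM in line A and 223 and 226 TPM in line B. RPL37A was at 299 and 266 TPM in naive-like libraries, 273 and 247 TPM in line A and 1615 and 1635 TPM in line B, though reads of this ribosomal protein gene may be shared with copies of it.

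The line mattered for size rather than direction in glycolysis and hypoxia genes. The lines differed in 8 of 24 glycolysis genes and 6 of 19 hypoxia targets, and in each of those the fall against line A was the larger. HK2 changed by −1.95 ± 0.079 against line A and −1.46 ± 0.079 against line B, and the difference between lines was −0.49 ± 0.079 (line B minus line A). SLC2A3 changed by −3.05 ± 0.071 against line A and −2.66 ± 0.071 against line B. For ENO1 the values were −0.71 ± 0.056 and −0.29 ± 0.056, and for BNIP3 −3.88 ± 0.095 and −3.17 ± 0.095. PDK1, the largest fall, changed by −4.01 ± 0.12 against line A and −3.58 ± 0.12 against line B, and its lines were not called as different.

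**Figure D5:**
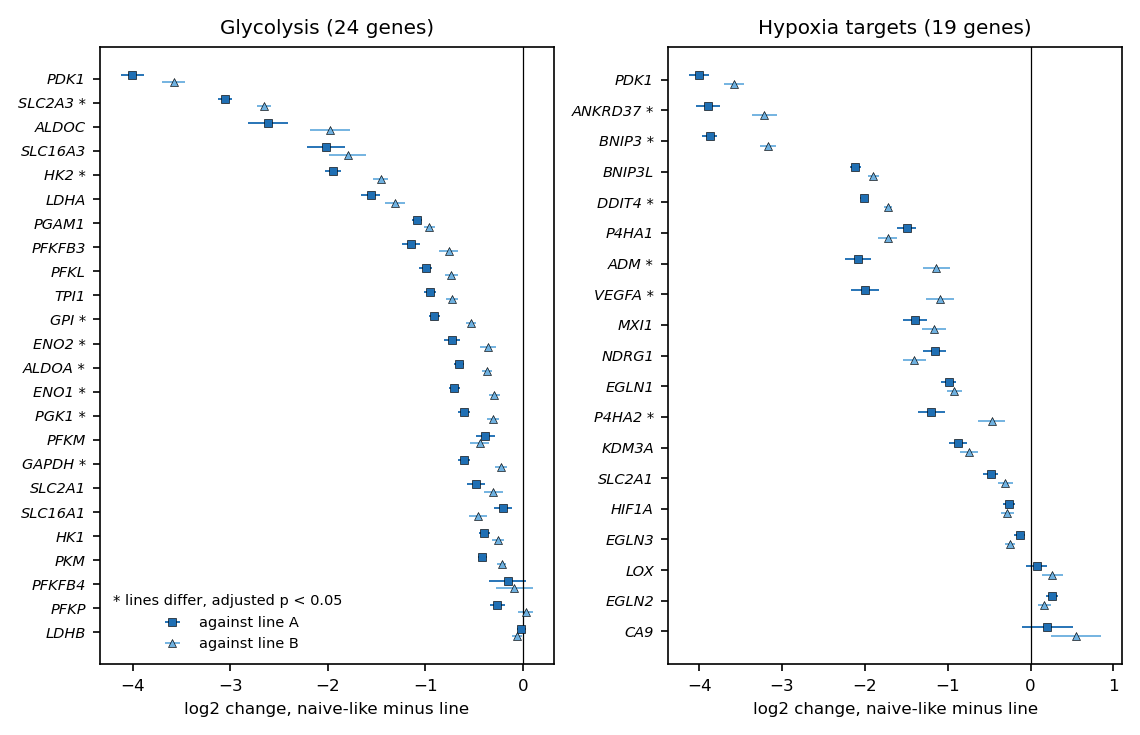
Log2 change of each tested glycolysis gene (left panel) and hypoxia target (right panel) in feeder-free naive-like cells against line A (blue squares) and against line B (light blue triangles), with the standard error of limma as horizontal bars and genes ordered by change. Asterisks mark genes whose lines differed (adjusted p under 0.05), and for each of these the change against line A lies further to the left.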

How the data were processed

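RNA was extracted from cultured sheep embryonic stem cells, and polyA-selected libraries were read as paired ends. TPM were deposited by the authors for 28475 genes, with Salmon named in the submitters' processing notes; its version, the genome build and the annotation are not given in the sources used here. TPM are scaled within each library, so a large change in a few abundant genes moves all others. Here log2(TPM + 1) was tested with limma 3.58.1 in R 4.3.3 with a variance trend, on genes that reached 1 TPM in 2 or more of 6 libraries, with Benjamini-Hochberg adjustment over all 14481 genes and a threshold of 0.05. The main contrast set 2 naive-like libraries against 4 primed ones. Contrasts with each primed line, and between lines, came from a fit of 3 groups. A count test was not used, since TPM hold no counts.

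The comparison and the 40 gene lists were chosen with earlier results of these data known. Genes named are the 15 largest rises and falls at a mean of at least 5 TPM, up to 5 genes of each list by smallest adjusted p, all core, naive, primed and formative, ERK and Nodal genes, genes on in a single state, the 10 largest gains and losses in TPM and genes for which the lines differed. Some genes under this rule are not reported here. Others are marked as named after their values were seen. Symbols of 28429 genes matched RefSeq's ARS-UI_Ramb_v3.0, used for neighbours only. Alternatives tried were other pseudocounts, filters, scalings, variance models, blocks, single lines and leaving out each library.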

Additional observations from a re-analysis of the deposited data

Results flagged for a closer look

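In 3 genes a single primed library stood apart from the other 3, judged by the gap to its nearest neighbour over the whole range of log2(TPM + 1). The lowest library was that far off for CD24 (0.847), FDPS (0.841) and MAGEL2 (0.86). Chance sets off about 1 in 20 groups in this way, and 251 genes were examined.

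For 37 of 251 named genes the change in naive-like cells differed with the primed line, tested as the difference between lines B and A in the fit of 3 groups. Over all tested genes, the lines differed in 5.33%. Some of these named genes, such as NES, BHMT, CLDN11, PLAAT1, SUCLG2 and TYMS, were named because their lines differed, so the count is partly fixed by that rule. Values here are the change against line A minus the change against line B, on the log2 scale, and a negative value means a more negative change against line A. Among glycolysis genes and hypoxia targets the differences were SLC2A3 −0.40, HK2 −0.49, GPI −0.37, GAPDH −0.38, ENO1 −0.41, ALDOA −0.28, BNIP3 −0.70, ANKRD37 −0.68, DDIT4 −0.29 and VEGFA −0.91. Other negative differences were DLK1 −0.40, MSN −1.62, DPYS −0.66, KITLG −1.25, DPPA2 −1.37, ST14 −0.88, KRT8 −0.51 and PRSS8 −1.17. Negative differences were also found for NES −2.29, PEG3 −0.91, BHMT −3.74, CLDN11 −2.04 and PLAAT1 −2.59. Positive differences were NDN 0.83, DUSP4 0.44, PRTG 0.53, SALL4 0.36, GBX2 1.14, POU3F1 0.54 and FST 0.38. Positive differences were also found for SOX1 0.65, PSAT1 0.39, SUCLG2 1.15, TYMS 0.87, PRKCE 0.86, HSPA5 0.30 and RPL37A 2.64. RPL37A belongs to a family with many near-identical copies, so its value is uncertain. The lines differed in more genes than these, and the cause of a difference between lines was not tested.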

How the results depend on the processing

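Of 251 named genes examined in this way, 228 were called, and 210 of these kept their call without any single library. FOXA2, ELF5 and LUM were not among the genes examined. Of the 18 that lost it in at least 1 case, 15 did so only without a naive-like library. Counts of rises ran over 2066 to 3361 and of falls over 1813 to 2871 when a library was left out, against 3515 and 3020 with all, and fewer libraries enter those fits. At an adjusted p under 0.01 there were 2135 rises and 1931 falls, and at least 2-fold changes left 702 and 993. Between lines, 772 genes were called, 227 to 556 without a library and 254 with no filter on low values. Against line A alone the change was −0.93 for NES, 0.23 for TYMS, −0.92 for CLDN11 and −0.77 for PLAAT1, and against line B alone 1.32 for BHMT, each opposite in sign to the estimate against both lines, where none of these 5 genes was called. No named call made against both lines turned its direction under any alternative run. With the replicate number as a block, 3267 rose and 2834 fell. Deviations of libraries with the same number correlated at −0.080, −0.019 and 0.10, so the numbers do not pair the libraries. With 2 naive-like libraries and no counts, the depth behind a low value cannot be judged.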
